A study of Mus musculus with 6 samples.

Results

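The proteasome subunit genes described here are the protein-coding mouse genes whose symbol is Psma, Psmb, Psmc or Psmd followed by a number, without the interferon-inducible Psmb8, Psmb9 and Psmb10. The rule found 36 genes among the 20254 genes of the expression table, and it uses names and no measured value. RNA sequencing of whole hearts of C57BL/6 mice gave 6 libraries in 2 genotypes. Knockouts of Trdn-as (KO), a long non-coding RNA antisense to the triadin gene, are KO-1 and KO-2 at 14 months and KO-3 at 5 months of age, and wild-type (WT) mice of the same strain are WT-1 and WT-2 at 14 months and WT-3 at 5 months. The labels give neither the way in which Trdn-as was removed nor the sex, and they do not say that the hearts of a genotype came from separate litters, so p-values measure the spread between these libraries. With 1 library a genotype at 5 months, age cannot be told apart from anything else that set replicate 3 apart from replicates 1 and 2.

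The proteasome is the large protease that degrades most proteins tagged with ubiquitin. Its 20S core is a barrel of outer alpha rings, which gate the entry, and inner beta rings, of which a few subunits carry the proteolytic sites. The 19S cap binds the tagged protein, removes the ubiquitin chain and unfolds the protein with a ring of ATPases. In heart muscle the particle clears damaged and surplus sarcomere proteins, and in cultured mammalian cells its genes are switched on together by the transcription factor Nfe2l1 when proteasome activity is short.

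The values are the authors' normalized signal per gene, and a log2 difference below is a difference of log2(value + 1). Testing covered the 13823 genes whose value reached 10 in 3 libraries or more, and a gene is called where its limma adjusted p, over all of these genes, is under 0.05. Of the 36 genes 35 were tested. Psmb11, the thymus form of a catalytic subunit, was left out by the filter with 11.2, 10.96 and 5.21 in KO-1, KO-2 and KO-3, against 9.23, 8.88 and 1.24 in WT-1, WT-2 and WT-3.

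Mitochondrially encoded genes took 44.3 to 49.4% of the signal in the 4 hearts of 14 months, against 41.6% in KO-3 and 40.0% in WT-3, so this share separates the ages; its part in the age differences below was not tested. The signal of all other genes added up to 10914464 to 11560422 in 5 of the libraries and to 14113890 in WT-3. All 6 cardiomyocyte markers were abundant in every library. Libraries of different ages had Spearman correlations over genes of 0.932 to 0.945, and libraries of the same age 0.967 to 0.987. Y-linked genes summed to 213 to 273 in replicate 2 of both genotypes and to 2652 to 4775 in the others. Both 5-month hearts thus had high sums, while at 14 months KO-1 and WT-1 had high and KO-2 and WT-2 low ones. The ages therefore differ in this make-up, and its part in the age differences was not tested. Trdn, the gene to which Trdn-as is antisense, stood at 3429, 3460 and 5606 in KO-1, KO-2 and KO-3, against 5702, 5600 and 9104 in WT-1, WT-2 and WT-3. It was thus lower in KO than in WT within each replicate number. Trdn-as itself was not analysed here.

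The stretch of 120 bases just upstream of the annotated start is printed for 6 of the genes, from the RefSeq promoters of build GRCm38.p6. Psmb5, Psmb6 and Psmd9 are shown because each has a match to TGACNNNGC, the core of the antioxidant response element that Nfe2l1 binds with small Maf proteins, in this stretch, and because all of them were lower at 14 months. Psmb3 is shown for a pair of CCAAT boxes, the letters bound by nuclear factor Y. Psmc4 and Psmd11 are shown as genes that were not called between the ages and have neither match. Since the genes were picked on both match and call, the printed lines cannot show whether matches and calls go together. Capitals mark the matched letters, and each line runs from the far end towards the start site on the gene's own strand.
Psmb5, chr14:54617996-54618115, minus strand: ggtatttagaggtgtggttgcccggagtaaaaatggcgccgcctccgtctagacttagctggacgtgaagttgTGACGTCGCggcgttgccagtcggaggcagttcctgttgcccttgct
Psmb6, chr11:70525237-70525356, plus strand: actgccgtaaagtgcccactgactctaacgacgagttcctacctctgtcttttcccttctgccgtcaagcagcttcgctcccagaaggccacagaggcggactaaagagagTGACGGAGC
Psmd9, chr5:123228070-123228189, plus strand: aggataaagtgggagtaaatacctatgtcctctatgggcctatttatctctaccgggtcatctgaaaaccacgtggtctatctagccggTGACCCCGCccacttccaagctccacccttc
Psmb3, chr11:97703314-97703433, plus strand: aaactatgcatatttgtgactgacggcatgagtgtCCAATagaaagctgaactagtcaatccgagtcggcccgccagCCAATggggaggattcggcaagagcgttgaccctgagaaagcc
Psmc4, chr7:28050093-28050212, minus strand: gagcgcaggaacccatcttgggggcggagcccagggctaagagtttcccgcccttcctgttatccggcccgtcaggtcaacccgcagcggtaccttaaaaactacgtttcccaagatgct
Psmd11, chr11:80428495-80428614, plus strand: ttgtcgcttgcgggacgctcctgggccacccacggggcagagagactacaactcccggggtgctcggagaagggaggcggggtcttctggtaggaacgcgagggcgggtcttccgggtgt

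Promoters were given for 29 of the 36 genes. Over the whole 300-base promoters and on both strands, TGACNNNGC was found in 16.1% of the 31 promoters of these genes, against 12.4% of all 32851 promoters. CCAAT was found in 38.7% of the promoters of these genes, against 37.4% of all. TGACGTCA, the cAMP response element, was found in none of them, against 1.79% of all, and TATAAA, which is part of the TATA box, in 9.68%, against 13.6% of all and 7.73% of the promoters of tested genes. The shares with TGACNNNGC and CCAAT lay close to those of promoters at large, and a match is a description of letters and no binding site.

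Hearts of 14 months were compared with hearts of 5 months to see how the levels of the subunit genes differ with age. Most subunit genes were lower at 14 months, with a median log2 difference of −1.43 over the catalytic beta subunits and of −0.21 over the lid of the 19S cap. Of the 35 genes tested 26 were called lower, which is 74.3%, and 1, Psmd3, was called higher. Of all 13823 genes tested 33.7% were called, 16.0% lower and 17.7% higher. The median log2 difference, 14 minus 5 months, was −0.70 over the subunit genes and 0.02 over all genes. All 4 libraries of 14 months lay below both of 5 months in 28 of the 35 genes, against 25.0% of all genes, and above both in 1, against 25.7% of all genes. In bulk hearts fewer cells of a type and less RNA per cell cannot be told apart.

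The 36 genes together made up 0.286 and 0.295% of the signal outside the mitochondrial genome in KO hearts and 0.290 and 0.301% in WT hearts of 14 months, against 0.404% in KO-3 and 0.439% in WT-3 at 5 months. Among the 4 libraries of 14 months the genes were measured closely. The coefficient of variation over these libraries had a median of 5.13% over the tested genes, with the lowest at 1.87% for Psmd3 and the highest at 56.9% for Psma8.

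**Figure D1:**
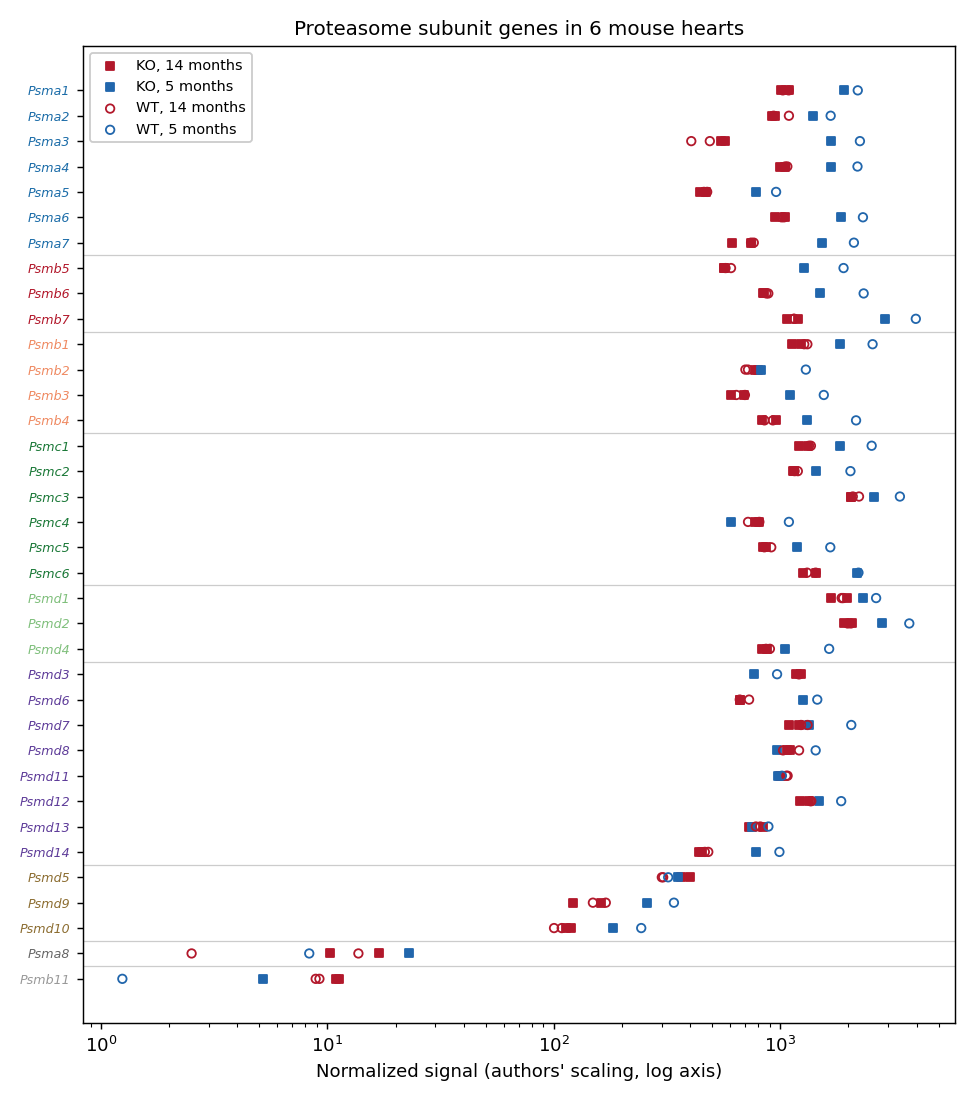
Normalized signal (log axis) of each of the 36 genes, by role, in the 6 hearts; squares are KO and circles WT, red is 14 months and blue 5 months. For Psmb7 the 4 red points lie between 1070 and 1197 and the blue points at 2907 and 3966, while for Psmd11 all points lie between 976 and 1077.

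The 3 catalytic subunits of the beta ring were all lower at 14 months. Psmb7, the trypsin-like subunit (chromosome 2, 38588036 to 38644087, minus strand, mm10), had 1070 and 1197 in KO and 1147 and 1151 in WT at 14 months, against 2907 in KO-3 and 3966 in WT-3 at 5 months. The groups did not overlap, and the level at 14 months was 33.2% of that at 5 months. Its log2 difference was −1.57 (SE 0.13, limma adjusted p = 0.000344).

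Psmb5, the chymotrypsin-like subunit and the main target of the drug bortezomib (chromosome 14, 54614119 to 54618022, minus strand), had 564 and 565 in KO and 573 and 606 in WT at 14 months, against 1276 in KO-3 and 1902 in WT-3. The 14-month values lay within a narrow band far below both 5-month values. The log2 difference was −1.43 (SE 0.14, limma adjusted p = 0.000597). Psmb6, the caspase-like subunit (chromosome 11, 70525367 to 70527858, plus strand), had 843 and 837 in KO and 868 and 885 in WT at 14 months, against 1495 in KO-3 and 2333 in WT-3. These groups did not overlap either, with a log2 difference of −1.12 (SE 0.15, limma adjusted p = 0.00152).

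The structural subunits of the beta ring, which carry no active site, were lower too, with a median log2 difference of −0.86. Of these 4 genes 3 were called lower, beside 16.0% of all genes. Psmb3 had 608 and 693 in KO and 640 and 698 in WT at 14 months, against 1109 in KO-3 and 1556 in WT-3. Psmb4, which closes the ring during assembly, had 826 and 958 in KO and 851 and 927 in WT at 14 months, against 1316 in KO-3 and 2160 in WT-3. Both were lower at 14 months in every library, by −0.995 (SE 0.14) for Psmb3 and −0.92 (SE 0.17) for Psmb4 on the log2 scale. Psmb1 differed by −0.81 (SE 0.13). Psmb2 was the exception of the 20S core. It had 794 and 774 in KO and 720 and 701 in WT at 14 months, against 822 in KO-3 and 1296 in WT-3, so KO-3 lay just above the older hearts, and its log2 difference of −0.47 (SE 0.18) was not called (limma adjusted p = 0.0774).

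All 7 genes of the alpha ring, which gates the barrel, were lower at 14 months, with a median log2 difference of −0.96. Psma7 had 614 and 746 in KO and 743 and 764 in WT at 14 months, against 1524 in KO-3 and 2113 in WT-3. No 14-month library came near the younger hearts, and the log2 difference was −1.33 (SE 0.14, limma adjusted p = 0.000647). Psma6, Psma1, Psma5, Psma4 and Psma2 differed by −1.03, −0.96, −0.90, −0.87 and −0.65 on the log2 scale, each with non-overlapping groups. Psma8, the testis form of an alpha subunit, was near the filter with 10.3, 16.9 and 22.9 in KO-1, KO-2 and KO-3, against 2.52, 13.7 and 8.32 in WT-1, WT-2 and WT-3. Its values overlapped between the ages and were not called.

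Psma3 (chromosome 12, 70974621 to 70996347, plus strand), an alpha subunit next to the gate, had the largest difference of all the subunit genes. Its values were 569 and 545 in KO and 488 and 404 in WT at 14 months, against 1669 in KO-3 and 2247 in WT-3. The log2 difference was −1.96 (SE 0.18, limma adjusted p = 0.000475). Psma3 shares 22.8% of its 31-base words with the processed pseudogene Gm13835, which went the other way. Gm13835 had 228 and 304 in KO and 278 and 301 in WT at 14 months, against 223 in KO-3 and 71.8 in WT-3, a log2 difference of 1.12 (SE 0.35, limma adjusted p = 0.0417). The sum of Psma3 and Gm13835 was 796 and 850 in KO and 766 and 706 in WT at 14 months, against 1892 in KO-3 and 2318 in WT-3. On the summed values the log2 ratio of the age means was −1.43, so the gene was lower with either reading, and the size of its difference depends on how reads were split between the pair.

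The ATPases of the 19S base, which unfold the substrate, were called lower in 5 of 6 cases, beside 16.0% of all genes. Their median log2 difference was −0.63. Psmc1 had 1213 and 1325 in KO and 1365 and 1339 in WT at 14 months, against 1833 in KO-3 and 2531 in WT-3, a log2 difference of −0.72 (SE 0.13, limma adjusted p = 0.00470). Psmc5, Psmc6, Psmc2 and Psmc3 differed by −0.70, −0.69, −0.57 and −0.49. The groups of these genes did not overlap. Psmc4 (chromosome 7, 28041707 to 28050101, minus strand) stood apart from the other ATPases. It had 770 and 803 in KO and 720 and 808 in WT at 14 months, against 605 in KO-3 and 1091 in WT-3. The 2 younger hearts lay on either side of the older ones, and the log2 difference was −0.07 (SE 0.20, limma adjusted p = 0.809).

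The 3 base subunits without ATPase activity were lower at 14 months. Psmd2, a large scaffold that docks ubiquitin-like domains, had 1912 and 2077 in KO and 1982 and 2050 in WT at 14 months, against 2813 in KO-3 and 3711 in WT-3. Psmd4, a ubiquitin receptor, had 832 and 875 in KO and 864 and 900 in WT at 14 months, against 1045 in KO-3 and 1643 in WT-3. Both genes had every older heart below every younger one, with log2 differences of −0.69 (SE 0.13) for Psmd2 and −0.59 (SE 0.15) for Psmd4. Psmd1, the second large scaffold, differed by −0.42 (SE 0.12, limma adjusted p = 0.0288). The call was kept in 10 of 18 alternative settings for Psmd1 and in 14 for Psmd4.

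The lid, which holds the deubiquitinase, was mixed. Of its 8 genes 3 were called lower, 1 higher and 4 not called, beside 16.0% of all genes lower and 17.7% higher. The median log2 difference of the lid genes was −0.21, and −0.02 with libraries scaled to nuclear genes. Psmd14, the zinc metalloprotease that cuts off the ubiquitin chain, had 440 and 452 in KO and 481 and 464 in WT at 14 months, against 781 in KO-3 and 991 in WT-3. Psmd14 was lower in every older heart, with a log2 difference of −0.94 (SE 0.12, limma adjusted p = 0.00148). Psmd6 was lower by a like amount, at −0.99 (SE 0.12). Psmd7, the inactive partner that Psmd14 is paired with, had 1092 and 1215 in KO and 1235 and 1319 in WT at 14 months, against 1345 in KO-3 and 2058 in WT-3. WT-2 and KO-3 lay close together, and the log2 difference of −0.46 (SE 0.14, limma adjusted p = 0.0383) was called in 8 of 18 alternative settings.

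Psmd3 (chromosome 11, 98682554 to 98695979, plus strand), a structural lid subunit, was the gene that was higher at 14 months. It had 1229 and 1176 in KO and 1216 and 1202 in WT at 14 months, against 763 in KO-3 and 968 in WT-3. All older hearts lay above both younger ones, with a log2 difference of 0.49 (SE 0.12, limma adjusted p = 0.0190). The call was lost in 6 of 18 alternative settings, among them the fits without KO-1, without KO-2 and without KO-3. Psmd11 (chromosome 11, 80428615 to 80473248, plus strand), which clamps the lid onto the core, had 1007 and 997 in KO and 1077 and 1063 in WT at 14 months, against 976 in KO-3 and 1016 in WT-3. The ages overlapped, with a log2 difference of 0.06 (95% interval −0.19 to 0.31, limma adjusted p = 0.716). Psmd8, Psmd13 and Psmd12 differed by −0.10, −0.05 and −0.33 and were not called. The sign of Psmc4, Psmd8 and Psmd13 turned positive when libraries were scaled to the total of nuclear genes, with 0.13, 0.10 and 0.15.

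Of the chaperones that assemble the base and leave the finished particle, Psmd9 and Psmd10 were lower at 14 months and Psmd5 was not called. Psmd9 had 122 and 161 in KO and 149 and 170 in WT at 14 months, against 258 in KO-3 and 339 in WT-3. Psmd10, also known as gankyrin, had 113 and 119 in KO and 108 and 100 in WT at 14 months, against 182 in KO-3 and 243 in WT-3. Neither gene overlapped between the ages, with log2 differences of −0.98 (SE 0.18) for Psmd9 and −0.93 (SE 0.19) for Psmd10. Psmd5 differed by 0.01 (95% interval −0.30 to 0.31).

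Grouped by particle, 13 of 14 genes of the core were called lower, with a median log2 difference of −0.98. In the 19S cap 11 of 17 genes were, with a median of −0.49, beside 16.0% of all genes called lower. Divided by transcript length, the median level of the core genes was 746 and 855 per kb in KO and 777 and 800 in WT at 14 months, against 1368 in KO-3 and 1828 in WT-3. The same level of the cap genes was 564 and 634 in KO and 609 and 599 in WT at 14 months, against 759 in KO-3 and 950 in WT-3. The ratio of the core level to the cap level was therefore 1.32 and 1.35 in KO and 1.28 and 1.33 in WT at 14 months, against 1.80 in KO-3 and 1.92 in WT-3. No library of one age came near the ratio of the other. Core transcripts were mostly shorter, at 766 (Psmb3) to 2911 bases (Psma2), against 1316 (Psmc5) to 3112 (Psmd1) in the cap. The age difference of all genes followed transcript length, and the part of that trend in the ratio was not tested. The level of the ratio depends on the length used: with the union of a gene's exons, a choice made after seeing the data, it was 0.950 and 1.04 in KO and 1.08 and 0.947 in WT at 14 months, against 1.77 in KO-3 and 1.60 in WT-3.

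**Figure D2:**
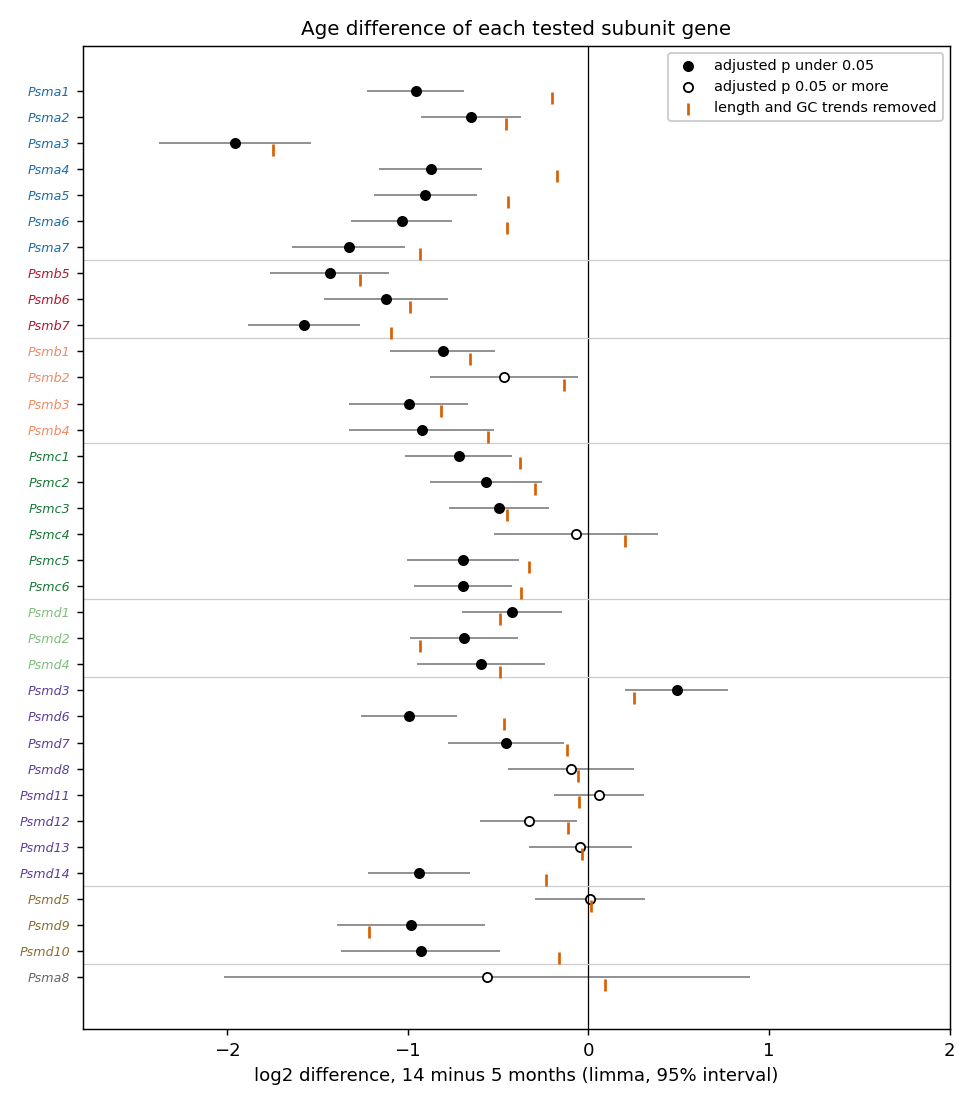
log2 difference, 14 minus 5 months, of each of the 35 tested genes with its 95% interval from limma; filled points are called at an adjusted p under 0.05, and orange ticks give the difference with length and GC trends removed. The core genes lie between −1.96 and −0.47, and Psmd3 is the one filled point above 0.

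Short transcripts were lower at 14 months across the whole table, and the subunit genes are short. Their median transcript length was 1591 bases (766 to 4397), against 3193 for all genes. Over 13779 genes with a transcript the age difference had a Spearman correlation of 0.31 with length and 0.28 with GC content, and over the 35 subunit genes 0.57 and 0.11. Of all genes under 1000 bases 51.8% were called lower, beside 3 of 4 subunit genes of that length. From 1000 to 1500 bases the share was 35.9% of all genes, beside 10 of 11 subunit genes. From 1500 to 2000 bases it was 22.3%, beside 7 of 11, and from 2000 to 3000 bases 14.9%, beside 5 of 7. Within these classes the subunit genes had medians of −1.06, −0.93, −0.56 and −0.69, against −0.67, −0.40, −0.18 and −0.01 for all genes.

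With a trend on length and GC content taken out of each library, a setting chosen after seeing the data, 20 of the 35 genes were called lower (57.1%) and none higher, beside 24.7% of all genes called, 14.8% lower and 9.97% higher. The median over the subunit genes was then −0.38, against −0.05 over all genes. All 3 catalytic subunits were still called, at −1.27 for Psmb5, −1.10 for Psmb7 and −0.99 for Psmb6, as were Psma3 (−1.75), Psmd9 (−1.21), Psma7 (−0.93) and Psmb3 (−0.82). Psma1, Psma4, Psmc2, Psmd7, Psmd10, Psmd14 and Psmd3 were no longer called. In this setting 11 of 14 core genes and 8 of 17 cap genes were lower, with medians of −0.61 and −0.29.

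**Figure D3:**
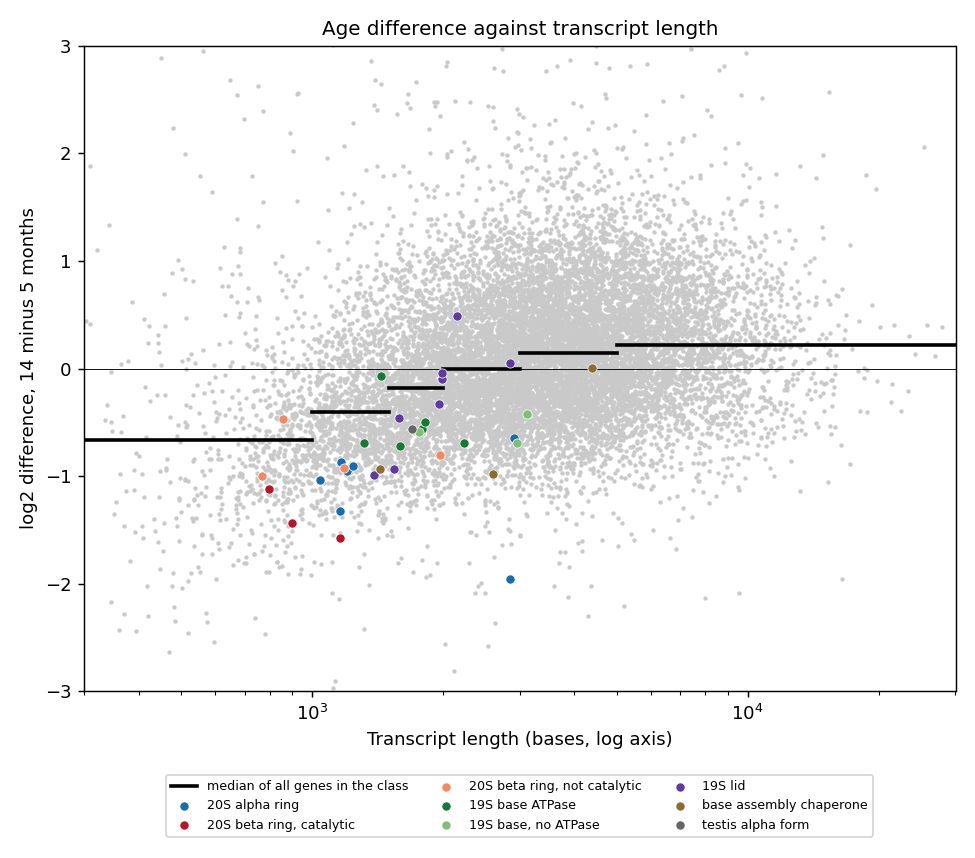
log2 difference, 14 minus 5 months, against transcript length (log axis) of all tested genes in grey and of the subunit genes by role in colour; bars are the medians of all genes in 6 length classes, and genes beyond the axis limits are not drawn. The bars climb from −0.67 for the shortest to 0.22 for the longest genes, and most coloured points lie below the bar of their class.

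The younger libraries differed from each other, so the age comparison was also made with each left out. Without WT-3, 21 genes were called lower and 1 higher, with a median of −0.58. Without KO-3, 29 were called lower and none higher, with a median of −0.90. With libraries scaled to the total of nuclear genes the median of all genes moved to 0.22, the calls over all genes to 3403 higher and 1233 lower against 2447 and 2216 as deposited, and the subunit genes to a median of −0.50 with 23 lower. Of the 27 calls 16 were kept in all 18 alternatives, among them all 3 catalytic subunits, Psma3, Psma5, Psma6, Psma7, Psmc1, Psmd2, Psmd6 and Psmd9.

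The promoter matches were set beside the age calls as a description. Of the 5 genes with TGACNNNGC in a promoter 4 were called lower (Psmb5, Psmb6, Psmc6 and Psmd9, but not Psmd12), and of the 23 tested genes without it 18. All 11 tested genes with CCAAT were called lower, and 11 of the 17 without it. Over all tested genes with a promoter the share called lower was 17.4% with CCAAT and 15.6% without, and 18.1% with TGACNNNGC and 16.0% without.

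Levels per kb set the subunits of 1 particle on a common scale. Over the 31 subunits of the core and the cap, without the assembly chaperones and tissue forms, the level per kb at 14 months ran from 176 for Psma3 to 1158 for Psmc3, with a median of 642. At 5 months it ran from 350 for Psmd11 to 2963 for Psmb7, with a median of 1076. The highest level was 6.57 times the lowest at 14 months and 8.47 times at 5 months. At 14 months the order from the top was Psmc3 at 1158 ± 44.8, Psmb6 at 1076 ± 27.8, Psmb7 at 984 ± 45.2 and Psma6 at 971 ± 43.4 per kb (SD, n = 4). Psmb7 and Psma6 lay within 1 SD of each other, while Psmc3 and Psmb6 were further apart than that. At the other end came Psma2 at 335 ± 27.1, Psmd14 at 298 ± 11.4 and Psma3 at 176 ± 25.7. This order rests on the longest transcript as length. With the union of exons Psma6 came first at 820 ± 36.6 per kb and Psmc3 next at 808 ± 31.2, Psmb5 moved to rank 4 and Psmb7 to rank 18 at 334 ± 15.3, and Psma3 stayed last (SD, n = 4).

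The order was not the same at the younger age. Psmb7 was the highest at 5 months with 2506 per kb in KO-3 and 3419 in WT-3. Psmb5 stood at rank 16 of 31 at 14 months and at rank 4 at 5 months, Psmc3 at rank 1 and rank 8, and Psmd3 at rank 21 and rank 30. The assembly chaperones lay well below the subunits that they help to build, at 57.8 ± 8.04 per kb for Psmd9, 77.1 ± 5.56 for Psmd10 and 77.6 ± 10.9 for Psmd5 at 14 months (SD, n = 4).

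**Figure D4:**
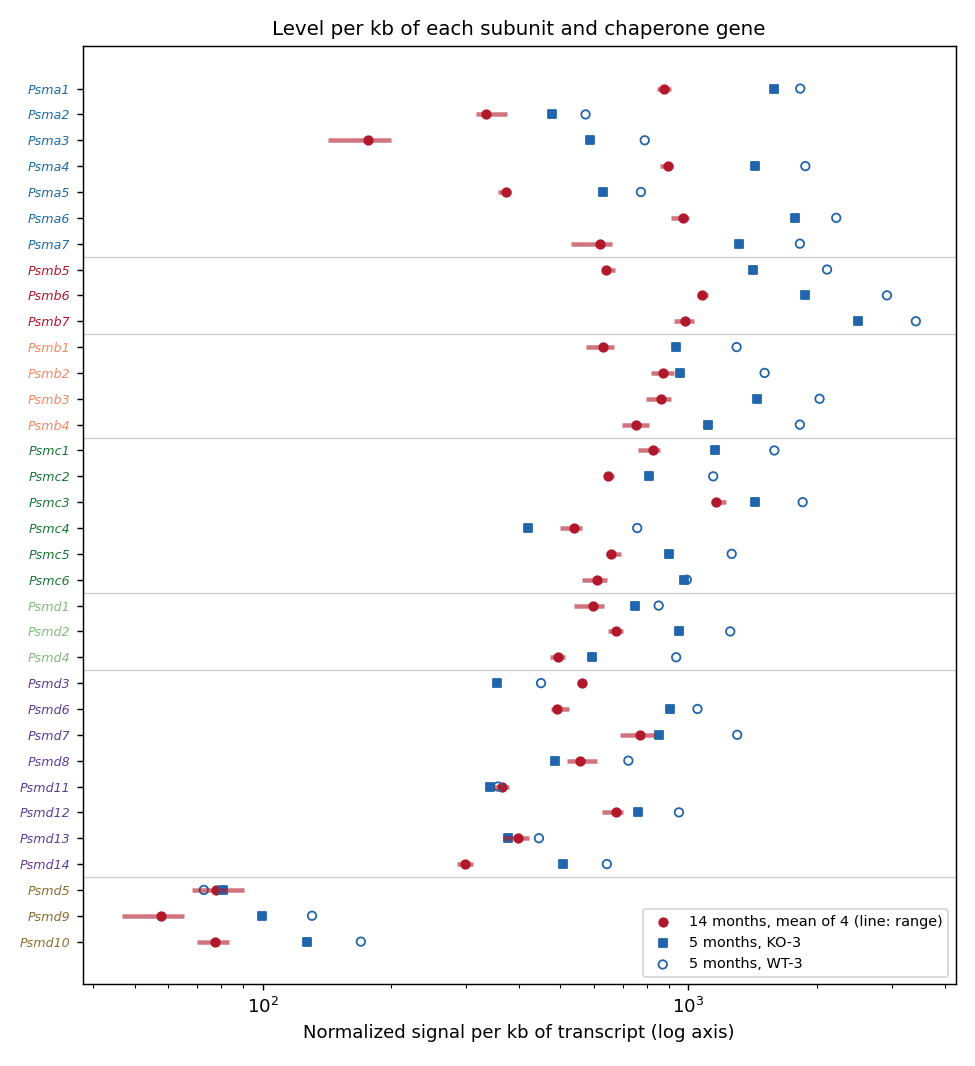
Normalized signal per kb of transcript (log axis) of the subunit and chaperone genes; red points are means of the 4 hearts of 14 months with their range as a line, blue squares KO-3 and open circles WT-3 at 5 months. The chaperones at the bottom lie under 200 per kb, and the 31 subunits lie between 176 and 1158 on average at 14 months.

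Parts of several transcripts also occur in other genes, which bears on how reads were assigned. Of the 36 genes 13 shared no 31-base word with another gene and 16 shared 5% or more. Psmb5 shared 71.7% of its words, most of them with the processed pseudogene Gm3375, which stood at 0 in 5 libraries and at 1.23 in WT-3. Psmb3 shared 66.8%, Psma5 66.5%, Psmd2 44.4% (mostly with Gm5422, at up to 4.72) and Psmc1 39.7%. Psmb7 shared 33.5%, most of it with the overlapping gene Nek6, whose values were 84.5 to 189, far below those of Psmb7. Whether the libraries keep the strand is not given in the sources used here, so reads of Psmb7 and of genes overlapping it on the other strand cannot be told apart if they do not.

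The genotype comparison asked how the subunit genes differ between KO and WT hearts with age as a covariate. None of the 35 subunit genes was called by limma, as none of all genes was (0.0%), and 0 were called by limma-voom. The smallest adjusted p of a subunit gene was 0.745, and 0 of them had an unadjusted p under 0.05, beside 841 of all genes. The median log2 difference, KO minus WT, was −0.17 over the subunit genes and −0.02 over all genes. Of the subunit genes 32 of 35 lay below 0, beside 53.9% of all genes.

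The median was not alike in the replicate numbers. KO-3 minus WT-3 had a median of −0.40 over the subunit genes, with 33 of 35 below 0, against 54.1% of all genes, and 2 above, against 45.6%. KO-1 minus WT-1 had a median of −0.07 and KO-2 minus WT-2 of −0.02. There 27 and 21 of 35 lay below 0, against 51.5 and 49.4% of all genes. In the fit without KO-3, and in that without WT-3, the median was −0.04. At 5 months the difference followed transcript length over all genes, with a median of −0.33 for genes under 2000 bases and 0.04 for longer ones. With length and GC trends removed the median over the subunit genes was −0.08, with 26 of 35 below 0, against 53.9% of all genes.

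At 14 months alone, KO-1 and KO-2 were both below WT-1 and WT-2 in 11 of the 35 genes, against 17.9% of all genes, and both above in 4, against 17.2%. Psma3 was among those above, with 569 and 545 in KO, against 488 and 404 in WT. Psmb2 was above as well, with 794 and 774 in KO, against 720 and 701 in WT. Both genes had the opposite order at 5 months, where Psma3 had 1669 in KO-3 against 2247 in WT-3 and Psmb2 822 in KO-3 against 1296 in WT-3.

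Over all 6 libraries, 1 gene had every KO heart below every WT heart, against 2.89% of all genes, and 1 had every KO heart above, against 2.88%. The gene below was Psmd11, the clamp between lid and core, with 1007, 997 and 976 in KO, against 1077, 1063 and 1016 in WT. Its genotype difference of −0.08 on the log2 scale (95% interval −0.32 to 0.15) was small and not called (limma adjusted p = 0.826), and it turned to 0.02 with libraries scaled to nuclear genes. The gene above was Psmd5 (chromosome 2, 34849734 to 34874968, minus strand), the base chaperone, with 398, 364 and 355 in KO, against 300, 304 and 320 in WT. Its log2 difference was 0.27 (SE 0.12, limma adjusted p = 0.745), which was not called. The lowest unadjusted p was that of Psmd7, at 0.0509, with 1092, 1215 and 1345 in KO, against 1235, 1319 and 2058 in WT. KO was lower than WT in each replicate number, with a log2 difference of −0.30 (95% interval −0.61 to 0.00, limma adjusted p = 0.745).

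**Figure D5:**
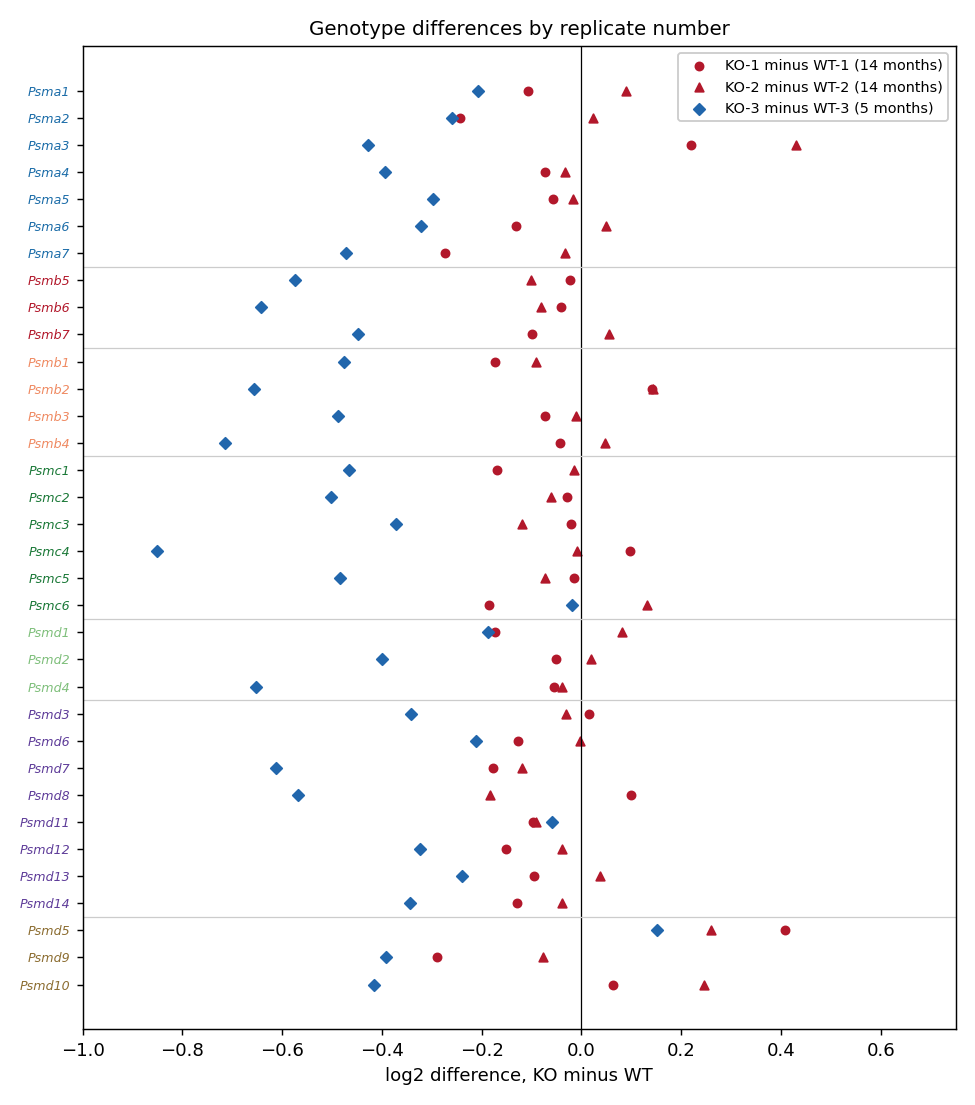
log2 difference, KO minus WT, of each gene within replicate numbers 1 and 2 (red, 14 months) and 3 (blue, 5 months); the testis form Psma8 is left out because of its low values. The red points scatter around 0, with medians of −0.07 and −0.02, and most blue points lie to the left, with a median of −0.40.

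Whether the genotype difference was itself different between the ages was tested with an interaction term, KO minus WT at 14 months minus that at 5 months. None of the subunit genes was called, against 2.08% of all genes (1.19% higher and 0.883% lower), and 13 of them (37.1%) had an unadjusted p under 0.05 by limma, beside 23.2% of all genes. That number was 3 (8.57%) with length and GC trends removed, beside 18.6% of all genes. With libraries scaled to nuclear genes it was 4 (11.4%), beside 25.4% of all genes. Limma-voom also called none of the subunit genes. The median over the subunit genes was 0.34, against 0.05 over all genes. The largest difference was that of Psmc4, at 0.89 (SE 0.19, limma adjusted p = 0.0607), followed by Psmb2, at 0.80 (SE 0.17, limma adjusted p = 0.0614). Psma3 followed at 0.75 and Psmb4 at 0.72. This term rests on 1 library a genotype at 5 months, and its median was 0.09 with length and GC trends removed, where 0.37% of all genes were called (0.232% higher and 0.138% lower), and 0.07 with libraries scaled to nuclear genes.

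The immune forms of the catalytic subunits replace the constitutive ones in immune cells or after interferon. Of these 3 genes 2 were called lower at 14 months, beside 16.0% of all genes. Psmb10, which replaces Psmb7, had 344 and 393 in KO and 284 and 309 in WT at 14 months, against 522 in KO-3 and 591 in WT-3, a log2 difference of −0.75 (SE 0.16, limma adjusted p = 0.00887). Psmb8, which replaces Psmb5, differed by −0.54 (SE 0.18, limma adjusted p = 0.0495). Psmb9, which replaces Psmb6, differed by −0.26 and was not called. With length and GC trends removed, and likewise with libraries scaled to nuclear genes, 1 of the 3 was called lower. Of all genes 14.8% were called lower in the former setting, and 1233 of 13823 in the latter.

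Per kb, the immune forms stood higher against their partners in the older hearts. Psmb10 had 28.4 and 29.1% of the level of Psmb7 in KO and 21.9 and 23.7% in WT at 14 months, against 15.9% in KO-3 and 13.2% in WT-3. Psmb8 had 16.9 and 16.3% of the level of Psmb5 in KO and 13.3 and 13.8% in WT at 14 months, against 8.83% in KO-3 and 7.45% in WT-3. In all 3 pairs every older heart lay above both younger ones. For Psmb9 against Psmb6 the shares were 5.82 to 6.73% at 14 months, against 3.996% in KO-3 and 3.10% in WT-3. The length used as divisor is the same in all libraries, so it sets the size of these shares and not their order over libraries. The age difference of all genes followed transcript length, and the part of that trend in these shares was not tested. White blood cell markers moved unequally. Of 5 macrophage markers 2 were called higher at 14 months and none lower, beside 17.7% of all genes called higher. Csf1r had 1084 and 846 in KO and 1125 and 645 in WT at 14 months, against 296 in KO-3 and 471 in WT-3. Cd68 had 136 to 158 at 14 months in KO and 135 to 153 in WT, against 39.9 in KO-3 and 91.5 in WT-3. C1qa, Adgre1 and Mrc1 overlapped between the ages, C1qa with 477 to 681 at 14 months, against 568 in KO-3 and 957 in WT-3. The sum of the 5 markers overlapped too, at 2333 to 3148 at 14 months, against 1741 in KO-3 and 2600 in WT-3. Ptprc, which marks all white blood cells, differed by −0.19 (SE 0.15, limma adjusted p = 0.372), and the B cell marker Ms4a1 by 0.65 (SE 0.36, limma adjusted p = 0.199), while Cd3e and Cd79a stood at 2.13 to 10.9. The part of white blood cells in these ratios was not tested.

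Of the factors that assemble the 20S core 4 of 5 were lower at 14 months and none higher, with a median log2 difference of −0.99, beside 16.0% of all genes called lower. With length and GC trends removed 2 of the 5, Psmg3 and Psmg4, were called lower, beside 14.8% of all genes, and the median was −0.47. Psmg2 had 198 and 236 in KO and 220 and 248 in WT at 14 months, against 398 in KO-3 and 500 in WT-3. Psmg1, its partner in building the alpha ring, differed by −0.50, and the other pair, Psmg3 and Psmg4, by −1.05 and −1.16. Pomp, the maturation factor of the beta ring, differed by −0.27 and was not called (limma adjusted p = 0.230).

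Among other cap proteins, 3 of 7 were called lower and 1 higher, beside 16.0% and 17.7% of all genes. With length and GC trends removed, and likewise with libraries scaled to nuclear genes, 2 were called lower and 1 higher. Of all genes 14.8% were lower and 9.97% higher in the former setting. In the latter 1233 of 13823 were lower and 3403 higher. Sem1, the smallest lid subunit, had 649 and 632 in KO and 586 and 635 in WT at 14 months, against 1429 in KO-3 and 1875 in WT-3, a log2 difference of −1.39 (SE 0.14). The deubiquitinase Uchl5 differed by −0.95 and the adaptor Ecpas by −0.44. Adrm1, the ubiquitin receptor to which Uchl5 binds, was higher, with 660 and 787 in KO and 724 and 763 in WT at 14 months, against 456 in KO-3 and 605 in WT-3 (log2 difference 0.48, SE 0.14, limma adjusted p = 0.0328). Of the activators and inhibitors of the core, Psme2 was lower (−0.72) and Psme3 higher (0.36), and 3 of 5 were not called. With length and GC trends removed none of the 5 was called (smallest limma adjusted p = 0.0962). With libraries scaled to nuclear genes 2 were called higher and 1 lower, beside 3403 and 1233 of all 13823 genes.

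Genes for proteins that carry tagged substrates to the proteasome moved in the other direction. Of 9 shuttle and p97 genes 6 were called higher at 14 months and none lower, beside 17.7% of all genes called higher. Rad23b had 2190 and 2413 in KO and 2169 and 2043 in WT at 14 months, against 961 in KO-3 and 1405 in WT-3. All older hearts lay above both younger ones, with a log2 difference of 0.92 (SE 0.16, limma adjusted p = 0.00456). Ubqln2 and Ubqln4 differed by 1.03 and 0.85. With length and GC trends removed 4 of the 9 were called higher, beside 9.97% of all genes.

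Uba1, the main enzyme that activates ubiquitin and so starts the tagging, had 3791 and 3998 in KO and 3238 and 3480 in WT at 14 months, against 898 in KO-3 and 1962 in WT-3. It was higher in every older heart than in either younger one, with a log2 difference of 1.44 (SE 0.26). Rps27a, which encodes ubiquitin fused to a ribosomal protein, was lower by −1.33 (SE 0.13).

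Of 9 genes for transcription factors and their processing, 2 were called lower and 1 higher, beside 16.0% and 17.7% of all genes. Nfe2l1, the main activator of subunit genes under proteasome inhibition, had 7591 and 7191 in KO and 6539 and 5842 in WT at 14 months, against 9249 in KO-3 and 5706 in WT-3. The younger hearts lay on either side of the older ones, and the log2 difference of −0.10 (SE 0.14, limma adjusted p = 0.598) was not called and was 0.09 with libraries scaled to nuclear genes and 0.19 with quantile normalization. Ngly1, the enzyme that strips sugars from Nfe2l1 before it can act, had 349 and 444 in KO and 437 and 432 in WT at 14 months, against 729 in KO-3 and 720 in WT-3, a log2 difference of −0.81 (SE 0.14, limma adjusted p = 0.00426). Nfe2l2, the factor of the oxidative stress response, was higher by 0.76 (SE 0.18). Nfyb, a subunit of nuclear factor Y, differed by −0.57 (SE 0.17), and Nfya and Nfyc were not called.

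Among ligases that tag muscle proteins, 3 of 9 were called lower at 14 months and 1 higher, beside 16.0% of all genes lower and 17.7% higher. With libraries scaled to nuclear genes 1 of the 9 was called lower and 3 higher, and the balance of all genes turned as well. Of all 13823 genes 1233 were then called lower and 3403 higher, against 2216 and 2447 as deposited. Trim63 (MuRF1), which tags sarcomere proteins, had 1847 and 1725 in KO and 1841 and 1681 in WT at 14 months, against 2590 in KO-3 and 2649 in WT-3, a log2 difference of −0.56 (SE 0.11). Trim54, its relative, differed by −0.50, Fbxo30 by −0.59 and Cblb by 0.78. The lysosomal route was mixed too, with 5 of 14 autophagy genes called lower and 2 higher. With libraries scaled to nuclear genes 2 were lower and 4 higher, a turn in the same direction as that of all genes. Becn1 and Map1lc3b differed by −0.76 and −0.62, and Atg7 and Ulk1 by 0.84 and 0.76.

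Cell markers moved with age beside the subunit genes. For comparison, 16.0% of all genes were called lower at 14 months and 17.7% higher. All 6 fibroblast markers had a positive log2 difference, 14 minus 5 months, with a median of 0.68 and 3 called higher, and their summed signal was 16833 to 19158 at 14 months, against 11458 in KO-3 and 18034 in WT-3. The 6 cardiomyocyte markers had a median of −0.36, with 2 called lower and 1 higher, and their sum was 502838 to 574020 at 14 months, against 521047 in KO-3 and 916112 in WT-3. The 4 erythroid markers summed to 6541 to 63546 at 14 months, against 2417 in KO-3 and 12750 in WT-3. Of 6 endothelial markers 3 were called higher and 2 lower, with a median of 0.38; Cdh5 had 2890 to 3818 at 14 months, against 1201 in KO-3 and 1505 in WT-3, while the sum of the markers overlapped between the ages (17039 to 21126 at 14 months, against 19184 in KO-3 and 19102 in WT-3). Of 5 smooth muscle and pericyte markers 1 was called higher and none lower, with a median of 0.42, and the 5 macrophage markers had a median of 0.26. The part of these differences in the levels of the subunit genes was not tested.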

How the data were processed

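The authors deposited 1 table of normalized signal per gene for 6 mouse heart libraries made, per the labels' protocols, from Trizol-extracted total RNA. Per the submitters' processing notes, Salmon 1.5.2 and mm10 were used; the way these values were later normalized is not given in the sources used here. Deposited signal values have decimals and share a common scale (a typical gene's ratio to its geometric mean over libraries is 1.00152 to 1.00612), so the depth in reads is unknown and no counting error can be given; deposited totals were 19810148 to 23510139.

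Of the gene identifiers 20122 matched GENCODE M21 (GRCm38, the build of mm10) for symbols, positions and transcript lengths, 132 did not, and 108 lines without values were left out. Length is that of the longest protein-coding transcript. limma 3.58.1 in R 4.3.3 (trend and robust options) was fitted to log2(value + 1) of genes with 10 or more in at least 3 libraries, with Benjamini-Hochberg adjustment over all of them and a threshold of 0.05. The genotype and age terms were fitted together (3 residual degrees of freedom), and their interaction in a further fit (2). An SE is limma's moderated one. No count test was used, since the values are not counts; limma-voom was run on them as a rough alternative. Alternatives changed the pseudocount, the filter, the scaling, the model and the libraries left out. On simulated data with 200 changed genes among 13967, the genotype fit recovered 99.5% and the age fit 98.5%. Raised genes had median log2 differences of 0.99 and 0.96 in these fits, and genes of low level were not changed. The simulated spread was small and held no trend on length and no shift between libraries. These shares therefore do not measure how well the fits find differences in the real libraries.

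The members, roles and lists were chosen with earlier results of these data known, and any member may be named; of the related lists up to 4 called genes are named, or otherwise the most abundant. Y-linked sums, Trdn and markers served as checks. Some genes of the related lists are not reported here. Replicate numbers are shared between genotypes in the labels, which state no pairing. Deviations of same-numbered libraries from their genotype means correlated at 0.390, 0.383 and 0.617, which hold the age difference, and at 0.0147 among 14-month libraries. The closest pair of libraries had 5.32% of genes within 1% of one another, so no library was a copy.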

Additional observations from a re-analysis of the deposited data

Results flagged for a closer look

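Each of the 36 genes was looked at for 1 value far from the others among the 4 libraries of 14 months, and 3 such values were found; chance gives about 1 in 20. Psma2 stood at 1092 in WT-1, above 922 and 949 in KO and 934 in WT-2. Psmd6 stood at 728 in WT-1, above 666 and 661 in KO and 662 in WT-2. Psma7 stood at 614 in KO-1, below 746 in KO-2 and 743 and 764 in WT. In all 3 genes both 5-month hearts lay above each of these values.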

How the results depend on the processing

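Over all alternatives the subunit genes kept a median below 0 between the ages, with 20 to 29 of the 35 called lower. The median was −0.38 with length and GC trends removed (a setting chosen after seeing the data) and −0.50 with nuclear scaling, and it ran from −0.90 to −0.58 with 1 library left out. The count called lower ran from 21 to 29 in those fits and the count called higher from 0 to 1; no gene was called higher (0) with length and GC trends removed, without the trend and robust options and with replicates 1 and 3 only. KO against WT called 0 subunit genes in every setting, with a median of −0.21 to −0.04 with 1 library left out. The median was −0.06 with nuclear scaling, where that of all genes was 0.08, −0.11 with quantile normalization and −0.12 with limma-voom. The fit with the replicate number as a block also called 0, with a median of −0.17, so the block changed no call; no block can be fitted between the ages, since age is nested in the number. The interaction median was 0.093 with length and GC trends removed, 0.048 with limma-voom, 0.068 with nuclear scaling, 0.21 with quantile normalization and 0.31 to 0.41 with 1 library left out, and over all genes nuclear scaling moved its calls from 165 higher and 122 lower to 115 and 635.

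Signs turned in genes near 0. Psmd11 was at 0.024 between the genotypes with nuclear scaling and at −0.052 between the ages with length and GC trends removed. Between the ages, Psmc4 was at 0.20 with length and GC trends removed, 0.13 with nuclear scaling and −0.52 to 0.38 with 1 library left out, positive without WT-1 and without WT-3. Psmd13 was at 0.018 with limma-voom, 0.15 with nuclear scaling and −0.15 (without KO-3) to 0.061 (without WT-3). Psmd8 was at 0.10 with nuclear scaling and −0.36 (without KO-3) to 0.17 (without WT-3). Nfe2l1 was at 0.095 with nuclear scaling, 0.19 with quantile normalization and −0.32 (without WT-3) to 0.12 (without KO-3). The cause was not tested. With 1 library a genotype at 5 months and no read depth, the precision at that age rests on 2 libraries.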
